A study of Mus musculus with 6 samples.

Results

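Anti-V5 ChIP-seq mapped Dppa2, a SAP-domain protein of the inner cell mass and germ line, in mouse ESCs, and the peaks at 9 genes of meiotic recombination and meiotic cohesin were examined here. The genes were given by name and are Spo11, Mei1 and Prdm9, which act in the making and placing of DNA breaks, Dmc1, which carries out strand exchange, Msh4 and Msh5, which act on crossovers, and Rec8, Smc1b and Stag3, which are cohesin subunits. They were looked up by symbol in GENCODE M1, the annotation of the mm9 genome, where all 9 were found among 22367 protein-coding genes and 37273 genes in all on the chromosomes with a peak. The cells were CGR8, a feeder-free mouse ESC line, with an N-terminally V5-tagged Dppa2 expressed from a pPyCAG vector in puromycin-selected stable clones. The parental CGR8 line without the tag was the control for the antibody. Both are ESC cultures without any further treatment, and each is 1 library, so that no replicate error and no test between conditions can be given. The control entered through the authors' peak calling, and neither it nor the 4 histone modification ChIPs were otherwise analysed here. The transgene is driven by a constitutive promoter, so the peaks describe tagged Dppa2 expressed in addition to the cells' own.

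In meiosis, SPO11 cuts both strands of the DNA, at places that PRDM9 marks through histone methylation in mice. DMC1 coats the resulting ends and invades the homologous chromosome, and the MSH4–MSH5 heterodimer holds the joined molecules so that some become crossovers. All of this takes place on chromosome axes built on a cohesin ring in which REC8, SMC1β and STAG3 replace subunits of the mitotic ring. These genes are expressed mainly in germ cells, and the promoters of many germline genes are known to be held silent in ESCs by a Polycomb complex that binds E2F and E-box letters. RNA was not measured in these samples, so that the genes' activity in these cells is not known from the data.

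A gene was called Dppa2-bound where the midpoint of a peak lay within 1000 bp of the TSS of any of its transcripts. One of the 9 genes met this, and it was Stag3. This is 11.1% (95% interval 0.281 to 48.2% by the exact Clopper-Pearson method, for counting error alone) and stands beside 14.2% of all protein-coding genes (3169 of 22367, interval 13.7 to 14.6%), so the count for the 9 genes lay near the background. With peaks of a score of at least 200 only, 0 of the 9 and 8.06% of all protein-coding genes were bound. Of the other 8 genes, the one closest to a peak was Msh5, at 13.8 kb, which left no gene near the 1000 bp limit on either side. The list was cut by the authors on MACS p-value (1e-10 or lower) and on reads (100 or more), and weaker binding at the 8 genes would not be seen in it. Without reads, the sequencing depth is unknown.

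The DNA before 4 of the 9 genes is shown here, because it sets the bound cohesin gene beside the other meiotic cohesin genes and beside Dmc1. Each run is from mm9, reads 5′ to 3′ in the sense of the gene, and ends at the last base before its first annotated TSS. The runs of Stag3 and Smc1b are cut where the first exon of the neighbouring divergent gene begins. Capitals mark GCGGGA or its reverse complement TCCCGC, letters bound by E2F factors, and the E-box CACGTG, which is its own reverse complement.
Stag3, 234 bases between Gpc2 and Stag3, chr5:138721234-138721467, plus strand: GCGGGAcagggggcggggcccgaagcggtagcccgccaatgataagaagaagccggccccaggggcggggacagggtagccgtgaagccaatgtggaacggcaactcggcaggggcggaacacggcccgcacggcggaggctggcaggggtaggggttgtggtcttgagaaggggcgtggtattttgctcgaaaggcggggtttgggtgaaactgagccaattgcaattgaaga
Smc1b, 141 bases between Ribc2 and Smc1b, chr15:84962388-84962528, minus strand: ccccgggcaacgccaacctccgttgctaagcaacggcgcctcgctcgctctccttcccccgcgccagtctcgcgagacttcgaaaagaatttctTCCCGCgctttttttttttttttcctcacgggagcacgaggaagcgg
Rec8, 250 bases, chr14:56236624-56236873, plus strand: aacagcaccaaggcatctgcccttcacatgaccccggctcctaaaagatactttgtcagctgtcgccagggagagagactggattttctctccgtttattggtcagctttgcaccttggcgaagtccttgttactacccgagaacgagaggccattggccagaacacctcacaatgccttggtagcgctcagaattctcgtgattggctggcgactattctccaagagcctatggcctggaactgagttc
Dmc1, 250 bases, chr15:79435530-79435779, minus strand: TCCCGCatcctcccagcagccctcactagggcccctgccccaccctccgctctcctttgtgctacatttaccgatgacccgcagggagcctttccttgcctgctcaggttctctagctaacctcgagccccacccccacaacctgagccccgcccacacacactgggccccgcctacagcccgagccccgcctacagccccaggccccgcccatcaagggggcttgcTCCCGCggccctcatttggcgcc

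Stag3 (ENSMUSG00000036928) encodes the HEAT-repeat subunit of meiotic cohesin and lies on the plus strand of chromosome 5 from 138721468 to 138753621. The Dppa2 peak there spans chr5:138720750-138722514 and is 1765 bp wide. Its midpoint, at 138721632, lies 105 bp upstream of the nearest of the 8 annotated TSSs of the gene and inside an annotated UTR, since 1 transcript starts 164 bp before the midpoint. The TSS with the most transcripts, 2 of 9, at 138721754, is 122 bp from the midpoint. The peak had a score of 125, on a scale where a MACS p-value of 1e-10 corresponds to 100. This placed it at rank 2949 of 3336 peaks, where the median score was 228, and a minimum score of 200 removed it. In the peak, 6.76% of the 36-base words occurred more than once in mm9. Most of its exact words of the length of the alignment seed were thus unique to this place.

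The peak at Stag3 was shared with a second gene. Gpc2, which encodes a glypican of the developing nervous system, is transcribed in the opposite direction, and its first TSS lies 399 bp from the midpoint. The peak covers TSSs of both genes, and from the list alone it cannot be assigned to either. The 234 bases between the genes hold 18 CpGs and begin with GCGGGA next to Gpc2. The 2 other matches lie in the annotated UTR of the Stag3 transcript with the first TSS, before the TSS with the most transcripts, and each is shown with the bases around it, capitals again marking the match.
Stag3, E-box 187 bases before that TSS, chr5:138721555-138721584: cgcgctggagccCACGTGacaggactgcac
Stag3, E2F letters 19 bases before that TSS, chr5:138721723-138721752: tatcccgtgcctTCCCGCgtttttttctaa

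**Figure D1:**
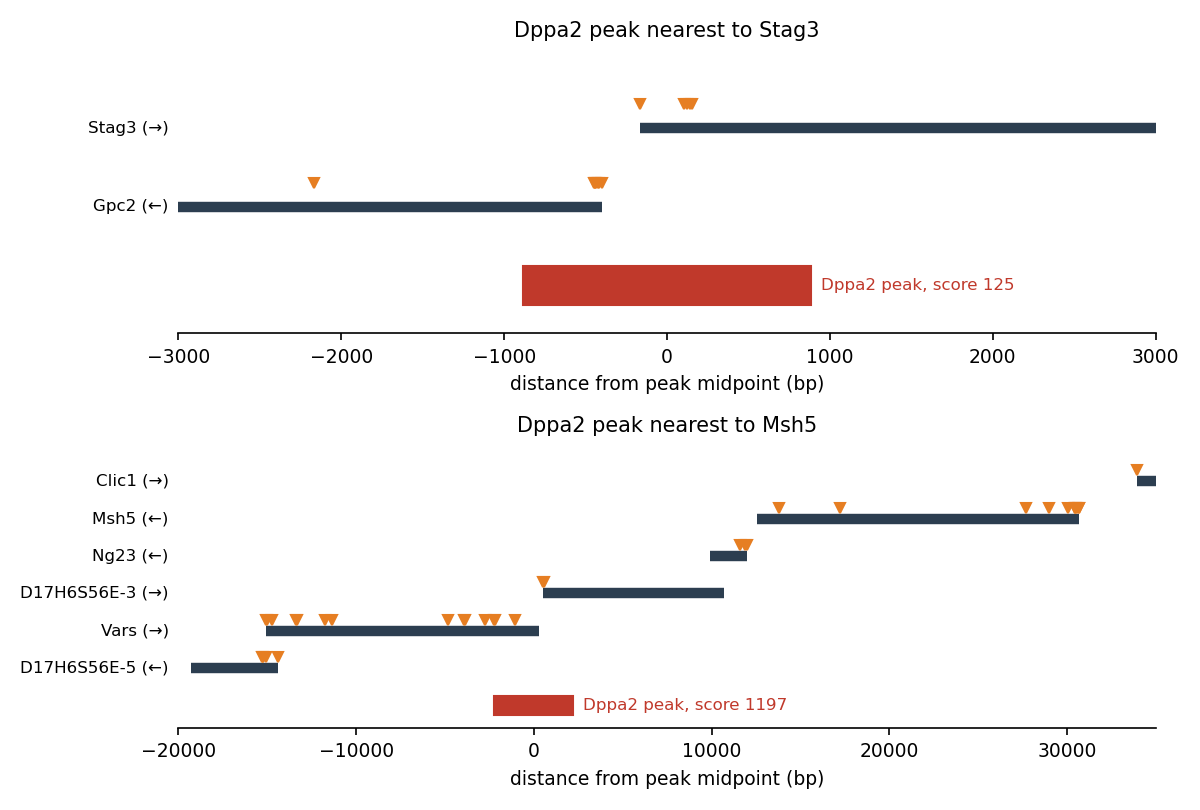
Maps of the Dppa2 peaks (red bars) nearest to Stag3 (top) and Msh5 (bottom), with protein-coding genes as dark bars, their TSSs as orange triangles, arrows for the direction of transcription and the distance from the peak midpoint in bp on the x axis. The peak at Stag3 covers the TSSs of Stag3 and Gpc2, whereas the peak nearest to Msh5 lies over the end of Vars and the start of D17H6S56E-3, with the nearest Msh5 TSS 13825 bp away.

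The other cohesin genes had no such peak. Smc1b (ENSMUSG00000022432), the SMC subunit that takes the place of Smc1a in meiosis, lies on the minus strand of chromosome 15 with a single TSS at 84962387. Like Stag3 it has a divergent neighbour close by, Ribc2, whose TSS is 142 bp away. The nearest peak midpoint was 74.2 kb upstream, at Fbln1, a gene of the extracellular matrix, with a score of 187. Neither Smc1b nor Ribc2 was bound. Rec8 (ENSMUSG00000002324), the kleisin subunit that closes the meiotic ring, has 4 TSSs from 56236874 to 56243756 on chromosome 14. The nearest peak lay 137 kb from the last of these and 144 kb from the first, which is the start of the coding transcript. That peak, with a score of 320, was at the leukotriene receptor gene Ltb4r2.

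The genes that make and place the breaks also lay far from any peak. Spo11 (ENSMUSG00000005883), which encodes the catalytic subunit of the breaking enzyme, is on chromosome 2 and has 4 TSSs. The distance from them to the nearest peak midpoint ran from 134 to 142 kb, and it was 140 kb for the TSS at 172805350, where 2 of 5 transcripts start. This nearest peak had its midpoint on a TSS of Ctcfl, the germline paralogue of Ctcf, with a width of 2450 bp and a score of 654 (rank 179). Mei1 (ENSMUSG00000068117), needed for break formation, has 1 TSS at 81900426 on chromosome 15, and the nearest peak was 89.2 kb upstream, at 1700029P11Rik, with a score of 542. Prdm9 (ENSMUSG00000051977), the histone methyltransferase that places the breaks, has 7 TSSs on chromosome 17, all between 141 and 150 kb from the nearest peak. That peak was at Chd1, which encodes a chromatin remodeller, and had a score of 333.

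Among the genes acting after the break, Dmc1 (ENSMUSG00000022429), the meiosis-specific recombinase, has its TSSs at 79435514 and 79435529 on chromosome 15, and both were 137 kb from the nearest peak. This peak, with a score of 229.8, lay at Sun2, whose product links telomeres to the nuclear envelope. Msh4 (ENSMUSG00000005493), a MutS homologue of crossover formation, has 3 TSSs on chromosome 3 at 67.5, 68.9 and 93.6 kb from a peak at Slc44a5 with a score of 368. Its partner Msh5 (ENSMUSG00000007035) lies in a gene-dense part of chromosome 17 and has 11 TSSs. The closest, that of a non-coding transcript, was 13.8 kb from a peak midpoint, and the first TSS of the gene, at 35183690, was 30.7 kb away. The peak next to Msh5, chr17:35150774-35155203, was among the strongest of the list with a score of 1197 (rank 28) and a width of 4430 bp. For each of the 8 genes without a peak, the nearest one had its midpoint within 0 to 536 bp of a TSS of another gene. This is common to the list, where 2909 of 3336 peaks were the nearest peak of a protein-coding gene with a TSS within 1000 bp.

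**Figure D2:**
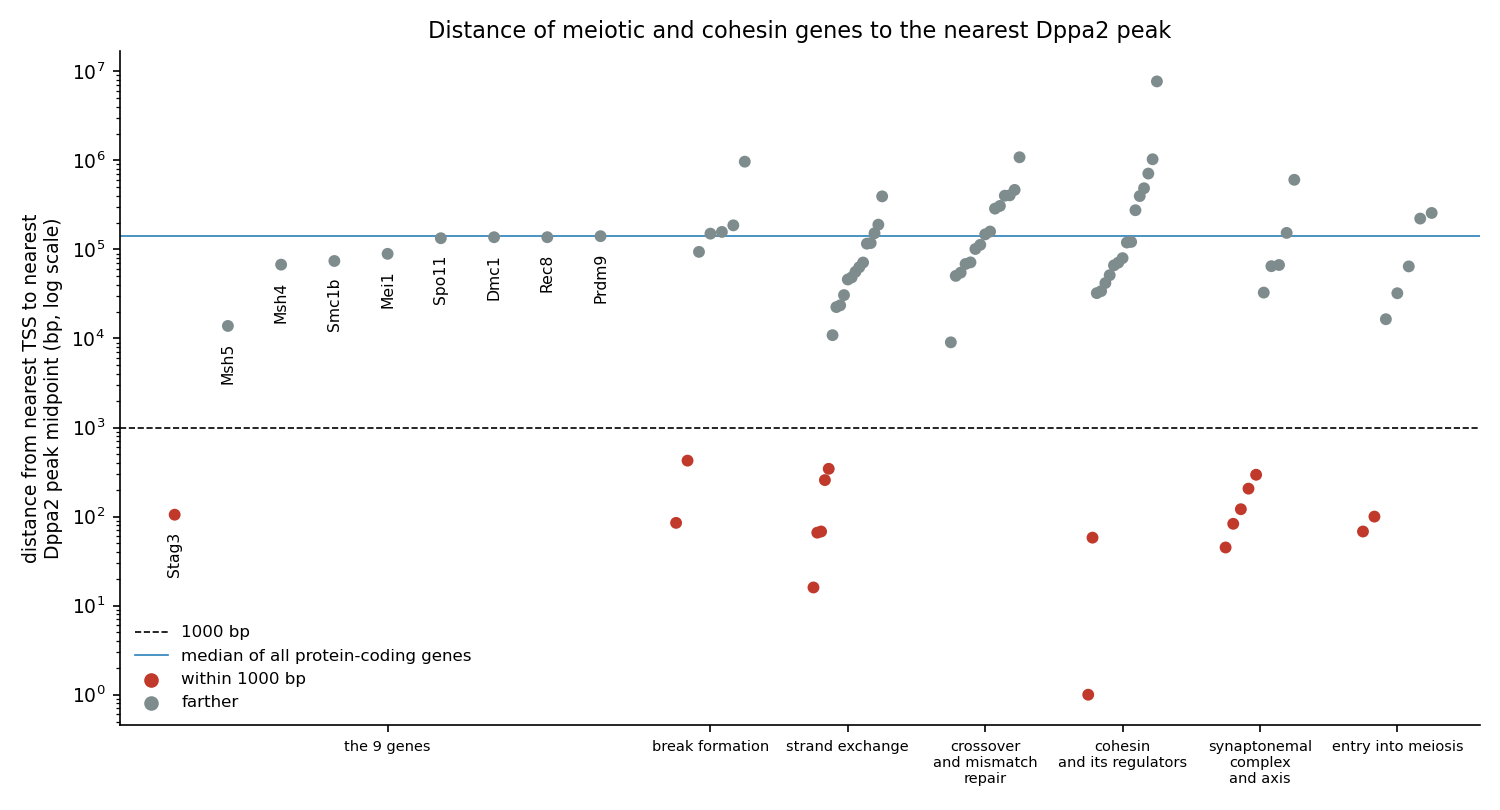
Distance in bp (log scale) from the nearest TSS of a gene to the nearest Dppa2 peak midpoint, for the 9 genes by name and for 6 lists of related genes, with 1 point per gene, red within 1000 bp and grey beyond it, and a distance of 0 drawn at 1 bp. Stag3 at 105 bp is set apart from the other 8 genes, which lie between 13.8 and 141 kb, close to or below the median of all protein-coding genes of 139.8 kb.

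The 9 distances had a median of 89.2 kb, against 139.8 kb for all protein-coding genes (quartiles 30.2 and 455.3 kb) and 191.1 kb for those without a peak. With peaks of a score of at least 200 only, the median of the 9 was 137 kb. This value does not compare with 139.8 kb, which is over peaks of any score. Of all protein-coding genes, 18.6% were as close to a peak as Msh5 or closer, and 50.2% were as close as Prdm9 at its nearest TSS. The distances of the 8 genes without a peak were thus within the range common to protein-coding genes. Spo11, Dmc1, Rec8 and Prdm9, from 134 to 141 kb, are given in no order, since the distance over the TSSs of a gene ran from 134 to 142 kb for Spo11, 137 to 144 kb for Rec8 and 141 to 150 kb for Prdm9.

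In 1000 bp around the TSS with the most transcripts (the first of them in ties), the CpG observed-to-expected ratio was lowest for Rec8 (0.491, 32 CpGs, 51.1% GC) and highest for Stag3 (0.762, 66 CpGs, 58.9% GC). The other 7 lay between 0.632 for Spo11 and 0.707 for Msh5, with Msh4 at 0.642, Dmc1 at 0.647, Mei1 at 0.652, Prdm9 at 0.656 and Smc1b at 0.705. The value of Spo11 depended on the TSS and was 0.229 around the first one annotated, below that of Rec8. The median of the 9, 0.652, was between that of bound protein-coding genes, 0.776, and that of genes without a peak, 0.467. When all protein-coding genes were split by the ratio into 10 bins of equal size, the bound share was 0.715% in the lowest bin and 34.8% in the highest. In the bins that held the 9 genes it was 12.1% for that of Rec8, 14.9% for that of Dmc1, Spo11, Msh4 and Mei1, 16.7% for that of Msh5, Prdm9 and Smc1b, and 20.3% for that of Stag3. Over all 6199 protein-coding genes with a ratio in the range of the 9, 15.8% were bound (exact 95% interval 14.9 to 16.8%), a share that the interval for the 9 genes includes. CpG content is a property of the reference and was not measured in these cells, and their DNA methylation was not examined.

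**Figure D3:**
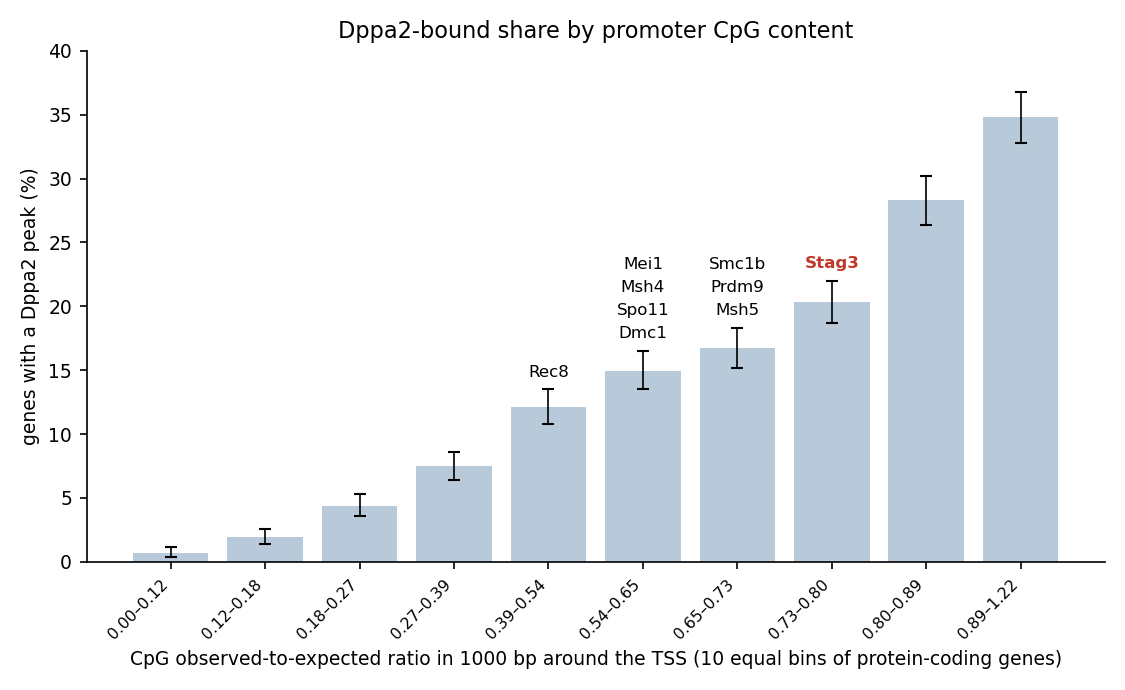
Share of protein-coding genes with a Dppa2 peak within 1000 bp of a TSS (bars, %), in 10 equal bins of the CpG observed-to-expected ratio in 1000 bp around the TSS, with exact 95% intervals as error bars and the 9 genes named above their bin. The 9 genes sit in the 4 bins from the fifth to the eighth, where 12.1 to 20.3% of genes were bound, and Stag3 (red), the bound gene, has the highest ratio of the 9.

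The letters of 2 motifs were searched on both strands from 250 bases before to 50 after the TSS with the most transcripts. GCGGGA or TCCCGC was present in 6 of the 9 promoters, against 24.5% of all protein-coding promoters, 41.6% of the bound ones and 33.7% of those in the same range of CpG ratio. In Stag3 the match began 19 bases before the TSS, in Dmc1 23, in Smc1b 47, in Spo11 50 and in Prdm9 60 bases before it, while in Msh5 it lay 150 bases before. Dmc1 held a second match at 250 bases, and Prdm9 one in its UTR after the TSS. The runs printed above show this match in Dmc1 and Smc1b, neither of which had a peak. Of the 6 promoters with these letters, 1 was bound and 5 were not, beside 1317 bound of 5490 such promoters over all protein-coding genes. No difference was tested. The E-box CACGTG was present in Stag3 and in Mei1, 2 of 9. Its share was 7.75% of all protein-coding promoters, 8.52% of the bound ones and 10.5% of those in the same range of CpG ratio. Stag3 was the only one of the 9 with both motifs in the window, and the share of all promoters with both is not given here. Msh4 and Rec8 had neither. A match describes the reference sequence and was not tested as a site.

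The alignment kept the best place of a read, so repeated sequence can lose or gain reads. Within 1000 bp on either side of the TSS, the share of repeated 36-base words was 0% for Dmc1, Msh4, Msh5 and Smc1b, 0.0509% for Prdm9, 1.22% for Rec8, 3.2% for Spo11, 4.02% for Mei1 and 5.95% for Stag3. All 9 windows were thus mostly unique at the length of the seed, including those of the 8 genes without a peak.

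To set the 9 genes in their pathway, 6 lists of other genes were counted in the same way, of which 75 of 76 genes were found in the annotation and 16, or 21.3% (exact 95% interval 12.7 to 32.3%), were bound. These lists were written with earlier results on meiotic genes in this library known, so their counts are descriptions beside the background of 14.2%. Of 7 other genes listed under break formation, 2 were bound. Hormad1, an axis protein needed for breaks, had a peak with a score of 369 and its midpoint 85 bp from the TSS, and Zcwpw1, a reader of the histone marks that PRDM9 writes, had one with a score of 391 at 425 bp. The 5 without a peak included Hells at 93.9 kb, Iho1 (annotated as Ccdc36) at 150.4 kb and Top6bl (Gm960), the partner of SPO11, at 157 kb. Prdm9 and its reader thus differed, with a peak at Zcwpw1 and none within 140 kb of Prdm9.

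Of 19 genes of strand exchange and end processing, 5 were bound. Spata22, which acts with MEIOB on single-stranded DNA, had the strongest of these peaks, with a score of 834, rank 84 and the midpoint 16 bp from the TSS. Hsf2bp, which brings BRCA2 to meiotic breaks, followed with 484, and Brme1 (4930432K21Rik), the partner of HSF2BP, had a peak with a score of 135 that also lay within 1000 bp of a TSS of Cc2d1a. Tex15, a germ cell gene needed for loading DMC1, had a score of 226. The peak at Atm, the kinase that signals breaks, with a score of 475, was shared with the divergent gene Npat. Its midpoint lay in an Npat UTR, 37 bp from a TSS of Npat and 344 bp from the nearest of Atm. Swi5 (10.9 kb) and Psmc3ip (23.6 kb), accessory factors of strand exchange, were among the closest of the 14 without a peak.

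None of 15 genes of crossover formation and mismatch repair was bound, with an exact 95% interval of 0 to 21.8% that includes the background share. The closest were Mus81 at 9.05 kb, Shoc1 (AI481877) at 50.4 kb and Rnf212 at 54.9 kb. With Msh4 and Msh5, 0 of 17 crossover genes examined had a peak. Of 17 genes of cohesin and its regulators, 2 were bound, which is 11.8%. These were Wapal, which opens the ring, with a score of 199, and Esco1, an acetyltransferase of the ring, with a score of 295. The peak midpoint at Esco1 lay on 1 of its 5 annotated TSSs, 243 bp from the one with the most transcripts. The closest without a peak were Cdca5 at 32.3 kb, Rad21l, the other meiotic kleisin, at 34 kb and Mau2 at 41.9 kb.

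Somatic counterparts of the meiotic genes were looked up as well, and those given here had no peak. Msh6, a mismatch repair homologue set beside Msh5, lay 466 kb from the nearest one. For cohesin, Rad21 (486 kb), Smc1a (711 kb), Stag1 (1029 kb) and Stag2 (7702 kb) were each farther from a peak than their meiotic counterpart Rec8, Smc1b or Stag3. Smc1a and Stag2 are on chromosome X. The CpG ratio was higher in the somatic gene of each of these pairs, from 0.778 for Smc1a to 1.00 for Stag1.

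The listed genes of the synaptonemal complex and chromosome axis had 5 of 10 bound (50.0%, exact 95% interval 18.7 to 81.3%). The bound genes were Tex12 (score 1469.6, rank 15), Sycp1 (1059), Syce1 (785), Sycp2 (340.4) and Sycp3 (139.4), all structural components. Syce3, Syce2 and Sycp2l were the closest without a peak, at 32.7, 64.9 and 66.9 kb. The interval overlaps that of the 9 genes, 0.281 to 48.2%, and the difference between the lists was not tested. Since the genes were chosen with earlier results of these data known, both intervals are for counting error alone. Among 7 genes listed under the entry into meiosis, Dazl, an RNA-binding protein of germ cells, had a score of 1465. Mybl1, put in the same list although a transcription factor of pachytene spermatocytes, had a score of 146. Ythdc2, Meioc (Gm1564) and Meiosin (Gm4969) lay 16.5, 32.2 and 64.5 kb from a peak. Of all 17 genes with a peak in the 9 genes and the 6 lists, Stag3 had the lowest score.

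**Figure D4:**
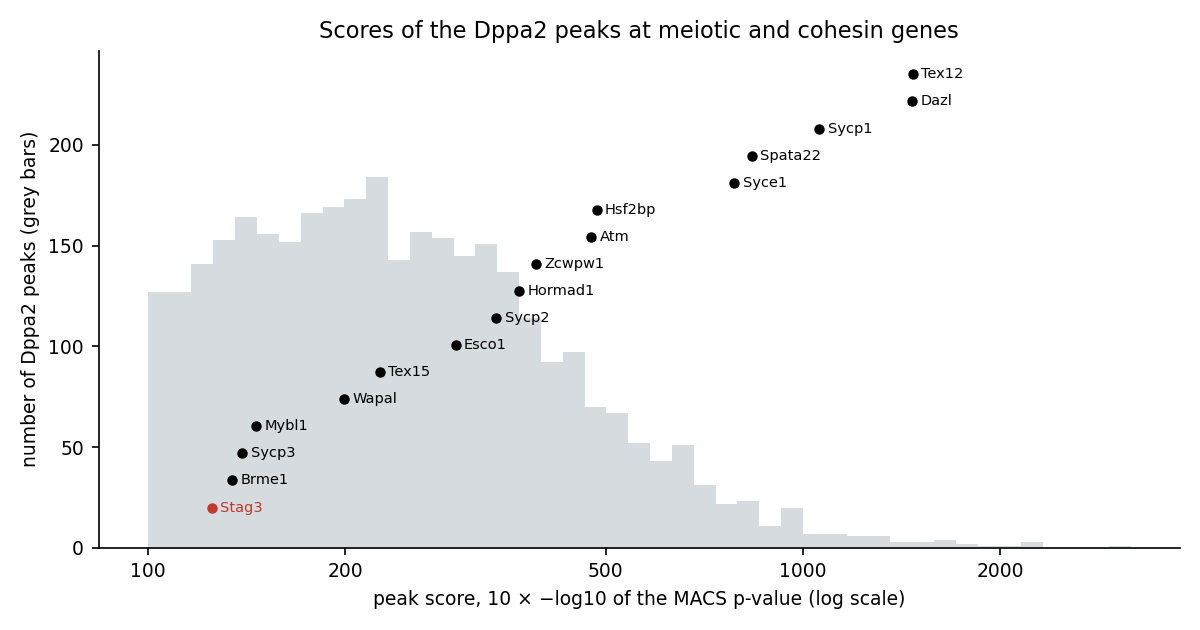
Scores of the Dppa2 peaks at the 17 bound genes of the 9 genes and the 6 lists (points, in order of score, their height having no unit) over the number of all 3336 peaks per score bin (grey bars), on a log scale of the score, a transform of the MACS p-value that rises as it falls. Stag3 (red) has the lowest score, 125, and Tex12 the highest, 1469.6.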

How the data were processed

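Anti-V5 ChIP-seq of V5-Dppa2 ESCs gave the peak list analysed here; the other 5 of 6 samples were not analysed. In the deposited list each peak has a score, computed by the authors with MACS as the negative log10 of its p-value over the control, times 10. The authors removed low-complexity reads, aligned to mm9 with Bowtie 0.12.7 (seed of 36 bases, at most 2 mismatches, best alignment kept), removed duplicates (Picard 1.81 in the submitters' processing notes) and called peaks with MACS 1.4.2 at a shift size of 75 bp. Peaks are named after TSSs, and sites away from TSSs were not part of the analysis. Depth is unknown.

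Peak midpoints were set against all TSSs of GENCODE M1 (mm9) with a window of 1000 bp, since the list gives no summits. CpG content, motif letters and 36-base words were read from mm9. Shares have exact Clopper-Pearson intervals at 95%. With 1 library no test was made. The genes named are the 9 genes, the genes at the peaks nearest to them, their somatic counterparts, and in each list the bound genes and the 3 closest others. Values of some genes under this rule are not reported here. Genes and lists were chosen with earlier results of these data known. The alternatives were a minimum score of 200, windows of 500 and 5000 bp, any base of the peak, TSSs of protein-coding transcripts only, and other windows for CpG content. The steps were checked on simulated data, where 600 of 600 distances and 200 of 200 CpG ratios were recovered and 0 of 28 windows had a wrong count of 36-base words. The tools were pysam 0.24.0, pandas 2.3.3, numba 0.67.0, matplotlib 3.10.9, scipy 1.17.1 and numpy 2.4.6 under Python 3.11.15.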

Additional observations from a re-analysis of the deposited data

How the results depend on the processing

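Stag3 remained the only bound gene of the 9 with windows of 500 and 5000 bp, with any base of the peak and with TSSs of protein-coding transcripts. At a minimum score of 200 the count fell to 0, that of cohesin and its regulators to 1 (Esco1), that of entry into meiosis to 1 (Dazl), that of strand exchange to 4 (without Brme1) and that of the synaptonemal complex and axis to 4 (without Sycp3), as fewer peaks enter, and the median distance of the 9 genes became 137 kb. The nearest peak was then 480.5 kb from Stag3 and 276 kb from Smc1b. The share of all protein-coding genes was 8.06% at that score, 12.6% within 500 bp and 15.5% within 5000 bp. With the first annotated TSS, the CpG ratio of Spo11 was 0.229. No paired analysis was possible because the peaks come from 1 library, which also leaves no replicate to omit.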

Other observations

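The bound genes in the surroundings of the 9 genes were counted beside the share of 14.2% over all protein-coding genes, and no difference was tested. Within 500 kb of Dmc1, 8 of 29 other protein-coding genes had a Dppa2 peak, and near Mei1 6 of 37 did, both on chromosome 15. Near Msh5, in the densest of these regions, 4 of 74 did. Around Rec8, 1 of 44 protein-coding genes was bound. Near Stag3, 2 of 32 were bound, Gpc2 being 1 of them through the peak it shares with Stag3. Spo11, Msh4 and Prdm9 had 2 bound neighbours each, of 8, 7 and 7 genes, and Smc1b had 3 of 13. These counts share peaks between neighbouring genes and are descriptions of 1 library.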
